A study of Mus musculus with 2 samples.

Results

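The 33 genes described here encode the enzymes that build cholesterol and fatty acids, together with the proteins that switch those enzymes on and off. They were chosen by name, with earlier results of these data known, and all 33 were found among the 32285 genes of the count matrices. Their levels were read in Tc17-polarised mouse CD8 T cells, first gene by gene in the libraries, then as a sum per cell across cytokine-defined cells and cell cycle states.

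Cholesterol is built from acetyl-CoA through mevalonate to farnesyl pyrophosphate, and from there through squalene and lanosterol to the finished sterol. When sterols in the endoplasmic reticulum run low, SCAP carries the SREBP transcription factors to the Golgi apparatus, where they are cut free to enter the nucleus. They then act on many of these genes, while INSIG proteins hold the SCAP complex back when sterols are plentiful. Activated T cells use both pathways to build membrane as they grow and divide.

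Single-cell RNA was sequenced from CD8 T cells isolated with affinity beads from mesenteric lymph nodes of C57/B6N mice, polarised with a Th17 cytokine and antibody kit, and then treated with PMA at 100 ng/ml plus ionomycin at 10 μg/ml during 3 h, which together mimic T-cell receptor signalling. There were 2 libraries, 1 per genotype: wild type, and Nfatc1 f/f × Cd4-Cre, in which Cre acts in T cells from the stage at which Cd4 is first expressed. Polarisation and restimulation were common to both. The labels used here do not state the number of mice behind each library, their age or the length of the culture. Cells of 1 library are not replicates, so no test was run, and the genotype cannot be told apart from the mouse, the culture or the library.

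After barcodes with fewer than 500 genes or more than 10% mitochondrial UMIs (unique molecular identifiers, each a counted RNA molecule) were left out, 1018 and 709 cells remained in the wild-type-labelled and deficient-labelled libraries, with 24452538 and 17898193 UMIs. The median depth was 20905.5 and 21436 UMIs per cell, and 0 barcodes were shared. Levels are given in CPM (UMIs of a gene divided by all UMIs of the library or of the cells named, multiplied by 1000000), a scale with no correction for transcript length. At this depth 1 UMI corresponds to 0.0409 and 0.0559 CPM. Nfatc1, the targeted gene, was at 39.8 CPM (95% Poisson interval 37.4 to 42.4) in the wild-type-labelled library and at 136 CPM (131 to 142) in the deficient-labelled library, which is 3.42-fold higher (3.17 to 3.68) and goes against the label. UMIs of a 3′ kit can come from outside a deleted part, and the sources used here do not name the exons removed, so this level does not check the labels. Cd8b1 was found in 96.6% and 96.5% of cells, and Cd4 in 0.295% and 0.564%. Of the natural killer markers, Ncr1 and Klrb1c had 0 UMIs in both libraries, and the summed B cell list (20.1 and 28.3 CPM) was mostly Ighm (16.8 and 26.8 CPM). Intervals cover counting error only, not the spread between cells, mice or cultures.

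Most members were lower in the deficient-labelled library. On the log2 scale of CPM plus 1, where the ratios of low genes come out too small, 29 of 33 were below 0 and 4 above (Ebp, Scap, Stard4 and Acly), with a median of -0.73 and a range from -2.44 to 0.31. With totals that leave out ribosomal protein and mitochondrial genes, which put the median of all genes at -0.125, only Scap and Acly were above 0, and with totals that leave out cytokine, chemokine and granule genes Idi1 and Acaca were above 0 as well. Over the 11322 genes averaging at least 1 CPM, the median was -0.0045 and 50.6% were below 0. Among the 22 members averaging at least 10 CPM over the libraries, 9 were lower by a factor of 2 or more on this scale, 0 were higher by that factor and 13 lay in between. The same rule counted 1.92% of all 7020 genes at that level as lower and 1.97% as higher. The 11 members under that level were all below 0 too, with a median of -1.0, and are given by their levels only.

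Summed over all 33 members, the level was 1354 CPM (1340 to 1369) in the wild-type-labelled library and 879 CPM (865 to 893) in the deficient-labelled library, 1.54-fold lower (1.51 to 1.57). The summed difference was not even between the groups of genes. The sterol steps stood at 421 against 191 CPM (2.20-fold lower) and the mevalonate steps at 358 against 211 CPM (1.70-fold lower). Genes of control and transport stood at 204 against 150 CPM (1.36-fold lower) and the fatty acid steps at 372 against 327 CPM (1.14-fold lower). Of the summed difference, 48.4% came from the sterol steps, 30.8% from the mevalonate steps, 11.4% from control and transport and 9.36% from the fatty acid steps. Fdps, Msmo1 and Cyp51 made up 18.8%, 17.0% and 13.5% of it.

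**Figure D1:**
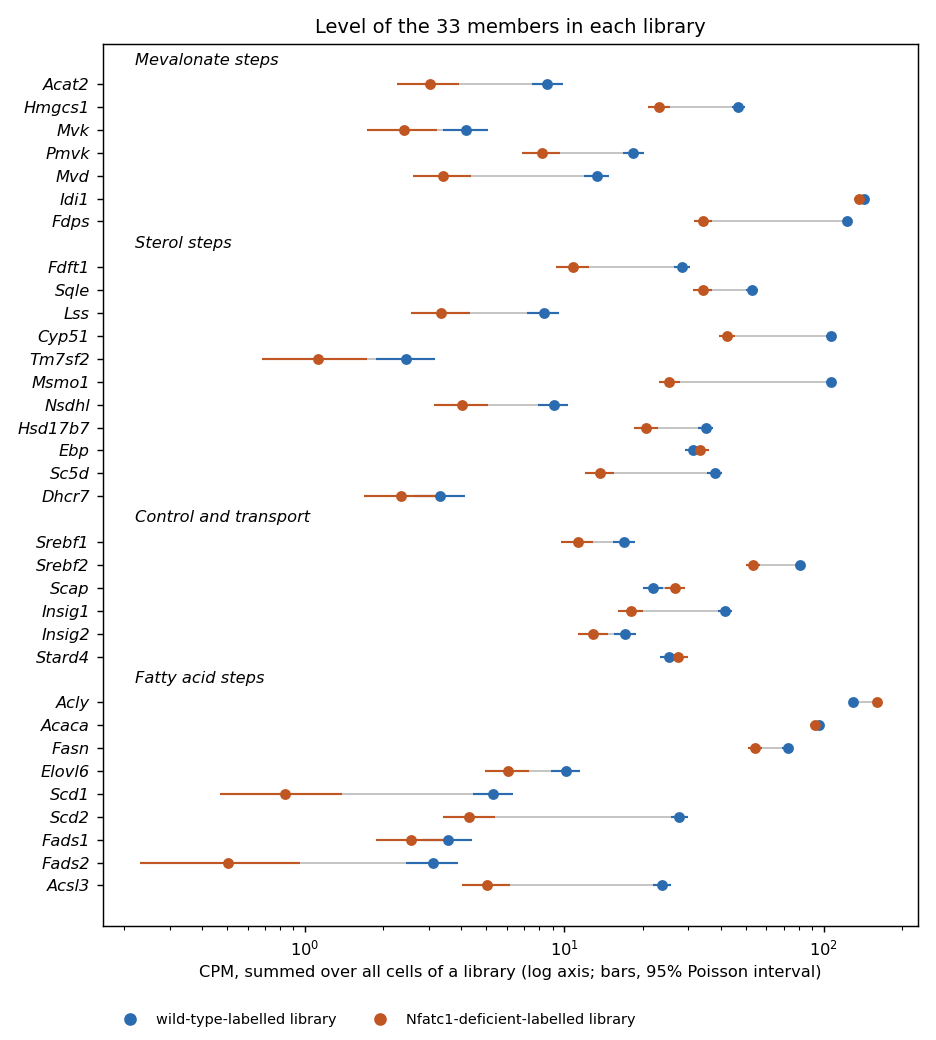
Level of each member in CPM (log axis) in the wild-type-labelled and the deficient-labelled library, grouped by role, with 95% Poisson intervals. The 2 points of a gene lie far apart for Fdps, Msmo1, Scd2 and Acsl3 and nearly together for Idi1, Ebp and Acaca, and Acly is higher in the deficient-labelled library.

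Since these genes share regulators and most were lower together, the 250 bases before each RefSeq start site were searched on both strands for 4 motifs, in the 26 members that the RefSeq promoter table (GRCm38.p6) holds. The NF-Y box, CCAAT, was found in 20 of 26 members against 37.5% of all 27025 genes, and the Sp1 box, GGGCGG, in 22 of 26 against 35.4%. The sterol regulatory element, TCACNCCAC, was found in 1 member (Hmgcs1) against 1.22% of all genes, and the E-box, CACGTG, in 5 members against 6.86%. Of the 9 members at least 2-fold lower, 6 are in the table and all 6 held CCAAT, as did 14 of the 20 others. These are matches of letters, not measured binding, and a motif that was not matched says only that those letters are not in the window. Of the windows below, 3 were picked to show these motifs and the fourth belongs to Acly, the member with the highest ratio. Hmgcs1 lay just outside the 2-fold rule, and 0 of the 6 members at least 2-fold lower held the sterol regulatory element. Members that were level or higher held motifs too, Idi1 and Ebp the NF-Y box and Scap the E-box. Sequences run 5′ to 3′ on the gene's own strand. Capitals mark the sterol regulatory element, the E-box and the NF-Y box, which on the other strand reads ATTGG.
Hmgcs1, chr13:119690101-119690350, + strand: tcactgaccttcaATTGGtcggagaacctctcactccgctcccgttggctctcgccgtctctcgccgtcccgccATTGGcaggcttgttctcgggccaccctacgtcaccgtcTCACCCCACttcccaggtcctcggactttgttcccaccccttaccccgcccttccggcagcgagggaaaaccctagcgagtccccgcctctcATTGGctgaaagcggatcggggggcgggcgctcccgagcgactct
Sc5d, chr9:42264301-42264550, - strand: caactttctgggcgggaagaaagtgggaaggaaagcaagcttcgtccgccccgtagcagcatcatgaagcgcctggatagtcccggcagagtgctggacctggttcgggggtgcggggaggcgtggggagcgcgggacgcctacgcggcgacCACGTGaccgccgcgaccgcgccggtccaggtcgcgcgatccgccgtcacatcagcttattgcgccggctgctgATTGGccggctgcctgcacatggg
Acsl3, chr1:78657575-78657824, + strand: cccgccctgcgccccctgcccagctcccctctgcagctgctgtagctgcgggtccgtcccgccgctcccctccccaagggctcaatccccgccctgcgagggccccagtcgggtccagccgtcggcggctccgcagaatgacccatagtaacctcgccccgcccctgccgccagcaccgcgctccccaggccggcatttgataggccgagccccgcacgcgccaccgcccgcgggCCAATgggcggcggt
Acly, chr11:100528001-100528250, - strand: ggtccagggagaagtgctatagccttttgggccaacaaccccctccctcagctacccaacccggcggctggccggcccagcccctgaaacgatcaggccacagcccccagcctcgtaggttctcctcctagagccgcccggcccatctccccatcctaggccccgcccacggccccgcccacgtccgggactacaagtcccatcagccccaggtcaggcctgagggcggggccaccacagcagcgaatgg
Hmgcs1 carries the sterol regulatory element and 3 NF-Y boxes, Sc5d an E-box and an NF-Y box, and Acsl3 an NF-Y box close to its start. The Acly window holds none of these 3 motifs, though it holds the Sp1 box, which is left in lower case. In each of the 4 windows the GENCODE M21 annotation has 0 exon bases.

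Among the mevalonate steps, 7 of 7 genes were below 0, but 1 of them by less than its counting error. Fdps (chr3:89093588-89101959), which makes farnesyl pyrophosphate at the branch to sterols and prenyl groups, was at 123 CPM in the wild-type-labelled library and 34.2 CPM in the other, 3.60-fold lower (3.30 to 3.94). Idi1 (chr13:8885501-8892451), the isomerase acting just before it, was at 143 and 136 CPM, a ratio of 1.05 whose interval (0.99 to 1.10) holds 1. The libraries thus differed at one step and were nearly level at the step before it. Pmvk, phosphomevalonate kinase, was at 18.4 and 8.16 CPM, just inside the 2-fold rule with a log2 ratio of -1.08. Hmgcs1, which condenses acetoacetyl-CoA with acetyl-CoA, was at 46.9 and 23.2 CPM, just outside it with -0.98. Mvd, the decarboxylase of the pathway, was at 13.3 and 3.41 CPM, while the kinase Mvk was at 4.17 and 2.40 CPM and the thiolase Acat2 at 8.59 and 3.02 CPM. Counts of Acat2 are uncertain because of its near copy Acat3, and those of Hmgcs1 because Gm48342 overlaps it on the opposite strand.

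The sterol steps held the largest share of the summed difference. Of their 11 genes, 10 were below 0, Dhcr7 by less than its counting error, beside 50.6% of the genes averaging at least 1 CPM. Msmo1 (chr8:64718139-64733792), which removes the methyl groups at carbon 4 of the sterol ring, was at 106 CPM against 25.4 CPM, 4.19-fold lower (3.79 to 4.63). Cyp51 (chr5:4081145-4104746), the lanosterol demethylase that acts before it, was at 106 against 42.2 CPM, 2.51-fold lower (2.32 to 2.73). Both were thus similar in the wild-type-labelled library and apart in the other. Fdft1, squalene synthase and the first step committed to sterols, was at 28.4 against 10.8 CPM (2.64-fold lower, 2.24 to 3.11). Sc5d, the desaturase of the sterol ring, was at 38.0 against 13.7 CPM (2.78-fold lower, 2.41 to 3.21). Smaller differences were found for Sqle, squalene epoxidase (52.8 against 34.1 CPM, 1.55-fold lower, 1.41 to 1.71), and for Hsd17b7, a ketosteroid reductase (35.0 against 20.7 CPM, 1.70-fold lower, 1.5 to 1.92).

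Ebp (chrX:8185329-8193512), the sterol isomerase acting after Msmo1, was the exception at 31.3 against 33.4 CPM, with an interval that holds equality. The remaining sterol genes were low: Lss at 8.30 against 3.35 CPM, Nsdhl at 9.08 against 4.02 CPM, Tm7sf2 at 2.45 against 1.12 CPM and Dhcr7 at 3.31 against 2.35 CPM. Fdft1, Lss and Cyp51 each overlap a gene on the opposite strand (Ctsb, 4930483K19Rik and Akap9) and Tm7sf2 overlaps Vps51 on the same strand, so reads could be shared between them.

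Of the 6 genes of control and transport, all averaging at least 10 CPM, 4 were below 0, beside 46.4% of all genes at that level. Insig1 was lower by 2-fold or more, as were 1.92% of those genes. Srebf2, which encodes the SREBP that acts mainly on cholesterol genes, was at 80.6 CPM against 53.4 CPM (1.51-fold lower, 1.40 to 1.63), and Srebf1, which encodes the forms tied more to fatty acid genes, at 17.0 against 11.2 CPM (1.51-fold lower, 1.27 to 1.80). Insig1, itself a sterol-regulated gene, was at 41.8 against 18.0 CPM (2.31-fold lower, 2.04 to 2.63), and its relative Insig2 at 17.2 against 12.9 CPM (1.33-fold lower, 1.13 to 1.57). Scap, the escort of the SREBPs, went the other way at 22.0 against 26.8 CPM, with the interval of the ratio above equality. Stard4, a carrier of cholesterol between membranes, was at 25.4 against 27.3 CPM, with an interval that holds equality. RNA levels do not show how much SREBP protein was cut or nuclear.

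Fatty acid genes at 10 CPM split into a desaturation and activation end (Scd2 and Acsl3), which was lower, and an entry that was not. Acly (chr11:100476353-100528000), which cleaves citrate into the acetyl-CoA used by both pathways, was at 130 CPM in the wild-type-labelled library and 161 CPM in the other, and its log2 ratio of 0.31 was the highest of all members. Acaca, the acetyl-CoA carboxylase that makes malonyl-CoA, was at 95.7 and 92.9 CPM (a ratio of 1.03, 0.97 to 1.10). Fasn, fatty acid synthase, was at 72.6 and 54.3 CPM (1.34-fold lower, 1.24 to 1.45). Thus the genes that turn citrate into malonyl-CoA were level or higher, and the synthase after them was a little lower.

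Scd2 (chr19:44293674-44306864), a stearoyl-CoA desaturase that makes monounsaturated fatty acids, was at 27.7 CPM against 4.30 CPM, 6.45-fold lower (5.09 to 8.27). Acsl3 (chr1:78657825-78707743), which activates fatty acids with coenzyme A at lipid droplets and the endoplasmic reticulum, was at 23.8 against 5.03 CPM, 4.74-fold lower (3.79 to 5.99). Low genes of the same end stood at 5.32 against 0.84 CPM for Scd1 and 3.11 against 0.50 CPM for Fads2. Fads1 was at 3.56 against 2.57 CPM, with an interval that holds equality. The elongase Elovl6 was at 10.1 against 6.03 CPM. Scd1 and Scd2 are close paralogs and Acsl3 overlaps Utp14b on the same strand, so these counts could be shared. Srebf1, Acaca and Elovl6 each overlap another gene on the opposite strand.

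The lower sum was spread over the cells and was not set by a few of them. Per cell, the members summed to a median of 1232 CPM (quartiles 901 and 1701) in wild-type-labelled cells and 762 CPM (quartiles 545 and 1056) in deficient-labelled cells. With every cell cut down at random to 5000 UMIs (1004 and 698 cells had that many), the median was 6 against 4 member UMIs and the mean 6.88 against 4.50. Cells with 10 or more member UMIs made up 20.8% (Clopper-Pearson interval 18.3 to 23.5) against 6.88% (5.11 to 9.01), and cells with 0 made up 1.2% against 4.30%. For the cholesterol steps alone, 7.97% of wild-type-labelled cells were at 0, against 23.1% of deficient-labelled ones. No cell type that should lack these genes was found in these libraries to show how many UMIs free RNA would give, so its share was not measured.

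The variance of the thinned sum was 2.61 and 2.41 times its mean. Across cells, the cholesterol and the fatty acid steps were hardly related (Spearman rho 0.12 and 0.070 over thinned cells, as a description). The per-cell level was also nearly unrelated to depth (rho -0.060 and 0.0099) and weakly related to the mitochondrial percentage (0.085 and 0.19). By rank correlation with the thinned sum over 4796 genes, the genes most like the members were Bach2 (0.12 and 0.25) and Cd44 (0.24 and 0.11), followed by Hspa5 (0.12 and 0.16), Man1a (0.096 and 0.18), Cacybp, Sik3, Mat2a, Ddx21 and Jarid2. The highest value in either library was 0.25, so none of these is more than a weak description in sparse counts.

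**Figure D2:**
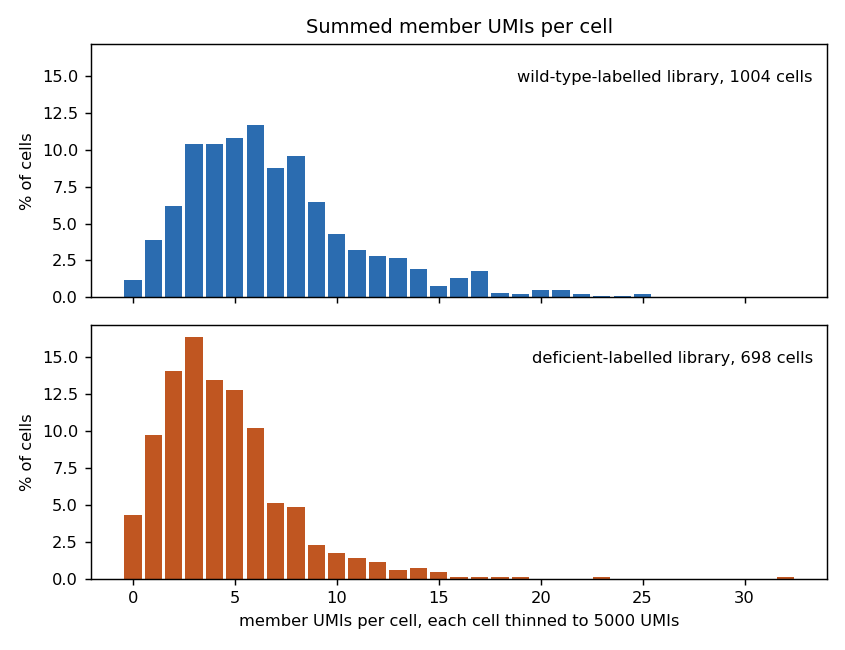
Share of cells (%) by the number of member UMIs per cell after thinning each cell to 5000 UMIs, for 1004 cells of the wild-type-labelled (top) and 698 of the deficient-labelled library (bottom). The whole distribution is shifted, with medians of 6 and 4 UMIs, and 1 cell of the deficient-labelled library reaches 32 UMIs.

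Cells were sorted into 8 classes that do not overlap by 4 cytokines, none of them a member, each counted as produced at 5 or more UMIs after thinning. The mix differed strongly between the wild-type-labelled and the deficient-labelled library: Il17a producers lacking Ifng were 57.9% of the former library and 19.5% of the latter, and Ifng producers lacking Il17a 4.68% and 38.8%. The summed member level was lower in the deficient-labelled library in each of the 8 classes. The ratio was nearest 1 in cells with both Il17a and Ifng (1079 against 878 CPM, deficient over wild type 0.813, 0.752 to 0.880). It was 0.773 (0.741 to 0.807) in Il17a and Il2 producers lacking Ifng (1334 against 1032 CPM) and 0.744 (0.698 to 0.794) in Il17a producers lacking both Ifng and Il2 (1263 against 941 CPM).

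The classes with little or no Il17a lay further from 1. Il17f producers lacking Il17a and Ifng stood at 1712 against 1139 CPM (0.665, 0.633 to 0.698), and cells with Il2 alone at 1390 against 910 CPM (0.655, 0.614 to 0.698). Ifng and Il2 producers lacking Il17a stood at 1176 against 755 CPM (0.642, 0.593 to 0.696), and Ifng producers lacking both at 1086 against 665 CPM (0.612, 0.540 to 0.692). Cells with none of the 4 cytokines stood at 1423 against 862 CPM (0.606, 0.565 to 0.650). Class sizes ranged from 22 to 370 cells in the wild-type-labelled library and from 29 to 242 in the other. With the classes weighted to 1 common mix, the ratio was 0.699 (0.683 to 0.715), against 0.649 for the libraries as they are.

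Members at least 2-fold lower numbered 2 in cells with Il17a and Ifng (background 3.93% of genes), 7 in Il17a and Il2 producers lacking Ifng (1.19%) and 3 in Il17a producers lacking both (2.52%). They numbered 7 in Ifng and Il2 producers lacking Il17a (3.70%), 8 in Ifng producers lacking both (7.52%) and 11 in the Il17f class (3.06%). In cells with Il2 alone there were 9 (3.02%), and in cells with none of the 4 cytokines 7 (2.21%). These are counts among the 18 to 26 members that reached 10 CPM in a class. In the other direction, 1 member was at least 2-fold higher in the Il17a and Il2 class, Ebp (background 4.79%), and 1 in the Il17f class, Acly (4.08%). On the log2 scale 15 of 33 members were below 0 in all 8 classes, as were 5.06% of the genes averaging at least 1 CPM: Hmgcs1, Pmvk, Mvd, Fdps, Fdft1, Sqle, Cyp51, Msmo1, Sc5d, Srebf1, Srebf2, Insig1, Scd2, Fads2 and Acsl3. Acly was below 0 in 0 of 8 classes, with log2 ratios from 0.082 to 1.27.

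Msmo1 ranged from 81.0 to 148 CPM over the wild-type-labelled classes and from 18.4 to 33.8 CPM over the deficient-labelled ones. Fdps ranged from 102 to 162 CPM and from 18.9 to 79.3 CPM. Idi1 ranged from 81.0 to 182 CPM and from 59.1 to 193 CPM, so that its classes overlapped almost entirely. In both libraries Idi1 was highest in the Il17f class. Only in cells with none of the 4 cytokines was its log2 ratio beyond 1 in size (148 against 59.1 CPM).

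**Figure D3:**
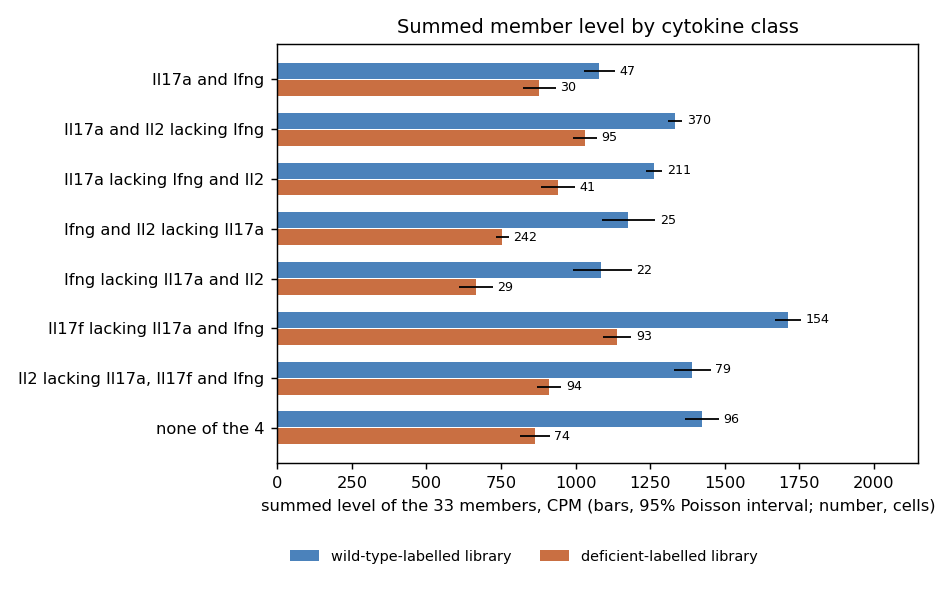
Summed level of the 33 members in CPM (bars from 0, 95% Poisson intervals, number of cells beside each bar) in 8 cytokine classes of each library. Every deficient-labelled bar is shorter than the wild-type-labelled bar of its class, and the Il17f class has the longest bar in both libraries (1712 and 1139 CPM).

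Within each library, Ifng producers lacking Il17a were set against Il17a producers lacking Ifng. Their summed level was lower in both: 1137 against 1304 CPM in the wild-type-labelled library (ratio 0.872, 0.822 to 0.925, 47 against 581 cells) and 745 against 1004 CPM in the deficient-labelled library (0.742, 0.712 to 0.774, 271 against 136 cells). The median log2 ratio of the members was -0.17 and -0.35, beside -0.11 and -0.25 over all genes, which were thus lower as well. The intervals of 3 of 33 members lay below 1 in both libraries, as did those of 7.08% of the genes averaging at least 1 CPM, a share close to that of the members. Acly was at 85.5 against 142 CPM and at 117 against 201 CPM, with Fdft1 at 11.7 against 27.0 CPM and at 7.31 against 15.2 CPM. Acsl3 was at 7.77 against 24.6 CPM and at 1.31 against 9.22 CPM. All 3 stayed below 1 in both libraries among G1 cells alone. At least 2-fold lower were 2 of the 24 members at 10 CPM in the wild-type-labelled library, Fdft1 and Acsl3 (background 2.91%). In the deficient-labelled library it was 1 of 19, Fdps, a share near the background (6.14%). Fdps stood there at 24.8 against 52.9 CPM (0.469, 0.382 to 0.576), but among G1 cells at 20.3 against 25.3 CPM, with an interval that holds 1 (0.802, 0.592 to 1.10).

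The next contrasts were chosen after values by class had been seen. The Il17f class exceeded all other cells of its library in summed level, at 1712 against 1295 CPM (1.32, 1.29 to 1.36) and at 1139 against 846 CPM (1.35, 1.29 to 1.41). Members with intervals above 1 in both libraries were Hmgcs1, Idi1, Sqle, Cyp51 and Stard4, which is 5 of 33, against 3.28% of the genes averaging at least 1 CPM. Cyp51, for example, was at 157 against 97.8 CPM and at 66.9 against 39.2 CPM. Sqle was at 73.9 against 49.2 CPM and at 57.3 against 31.1 CPM. At least 2-fold higher were 1 member in the wild-type-labelled library, Acat2 (background 0.114%), and 0 in the deficient-labelled library (0.503%). Acly went in opposite directions, at 108 against 133 CPM in the wild-type-labelled library but 263 against 148 CPM in the other. Cytokine, chemokine and granule genes took 2.18% and 5.49% of the UMIs of this class, and with totals that leave those genes out the sums were 1.29 and 1.28 times those of the other cells.

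Among Il17a producers lacking Ifng, cells with Il2 and cells without it had similar sums (1334 against 1263 CPM and 1032 against 941 CPM). Intervals lay above 1 in both libraries for 2 of 33 members (4.94% of the genes averaging at least 1 CPM) and below 1 for 3 (10.7%), shares close to or under those of all genes. Higher with Il2 were Idi1, at 161 against 102 CPM and 187 against 95.3 CPM, and Acly, at 166 against 109 CPM and 233 against 128 CPM. Lower with Il2 were Fdps, Ebp and Scd2, of which Ebp was at 19.6 against 50.4 CPM and at 40.5 against 72.1 CPM. At least 2-fold lower with Il2 were 2 members in the wild-type-labelled library, Ebp and Scd2 (background 5.87%), and 0 in the deficient-labelled library (4.68%). G2/M cells made up 13.3% and 17.1% of the cells without Il2 and 5.68% and 6.32% of those with it. Among G1 cells alone the ratios of Idi1 (1.34 and 2.05), Acly (1.41 and 1.59) and Ebp (0.513 and 0.577) kept their direction, whereas those of Fdps were 0.932 and 0.925 with intervals that hold 1. Scd2 stayed lower among G1 cells of the wild-type-labelled library (0.361) but turned to 2.53 in the deficient-labelled one, on 7 against 1 UMI and with an interval that holds 1.

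Cell cycle phases were called from lists of 43 S-phase and 54 G2/M genes, none of them a member. The wild-type-labelled library held 892 G1, 41 S and 71 G2/M cells and the deficient-labelled library 645, 21 and 32. G2/M cells were deeper, with a median of 47589 and 52257 UMIs against 20303 and 21002 in G1. The summed level hardly differed between G2/M and G1, at 1355 against 1365 CPM (0.993, 0.963 to 1.02) in the wild-type-labelled library and 923 against 867 CPM (1.06, 1.01 to 1.12) in the other. Single members differed in opposite directions and are given below beside the shares of all genes.

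Higher in G2/M than in G1 in both libraries, by intervals above 1, were 7 of 33 members: Pmvk, Fdps, Tm7sf2, Ebp, Scd2, Fads1 and Fads2. The same held for 19.8% of the genes averaging at least 1 CPM, a share close to that of the members. Ebp was at 67.0 against 22.7 CPM and at 78.1 against 25.3 CPM, ratios of 2.95 (2.52 to 3.46) and 3.09 (2.53 to 3.75). Fdps was at 190 against 107 CPM and at 98.8 against 22.6 CPM, ratios of 1.77 (1.62 to 1.93) and 4.38 (3.64 to 5.26). Pmvk was at 30.1 against 15.2 CPM and at 22.9 against 5.47 CPM. The library difference in Fdps was thus wide in G1 (107 against 22.6 CPM) and narrower in G2/M (190 against 98.8 CPM). Scd2 was at 56.1 against 20.9 CPM in wild-type-labelled cells and 7.10 against 3.54 CPM in deficient-labelled cells.

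Lower in G2/M than in G1 in both libraries by the same rule were Idi1, Msmo1, Acly and Fasn, 4 of 33 against 8.74% of genes. Idi1 was at 88.7 against 156 CPM and at 106 against 142 CPM. Acly was at 97.6 against 138 CPM and at 107 against 168 CPM. Msmo1 was at 91.1 against 112 CPM and at 17.5 against 25.7 CPM. At least 2-fold higher in G2/M were 3 members in each library: Ebp, Scd1 and Scd2 among wild-type-labelled cells (background 8.69%), and Ebp, Fdps and Pmvk among deficient-labelled cells (10.1%). Of the members, 26 and 20 reached 10 CPM in this contrast, so these shares are near the background, and 0 members were at least 2-fold lower (1.67% and 1.43%).

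Some of these calls depended on how phases were scored. With scores on values scaled per gene, an alternative chosen after seeing the data, the deficient-labelled intervals of Fasn (0.898, 0.756 to 1.06), Tm7sf2 (2.51, 0.672 to 9.40) and Fads2 (10.1, 0.995 to 495, on 4 against 1 UMI) held 1. The other 5 members that were higher and the other 3 that were lower kept their intervals on the same side in both libraries. Wild-type-labelled Scd2 fell from 2.69 to 1.67 and deficient-labelled Ebp from 3.09 to 1.95, both short of 2-fold, and Scd1 (9.13 against 2.23 CPM) no longer averaged 10 CPM. Deficient-labelled Pmvk went from 4.19 to 2.56. At 13.9 against 5.44 CPM it no longer averaged 10 CPM either, so its 2-fold call was lost too. Deficient-labelled Fdps went from 4.38 to 2.54.

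**Figure D4:**
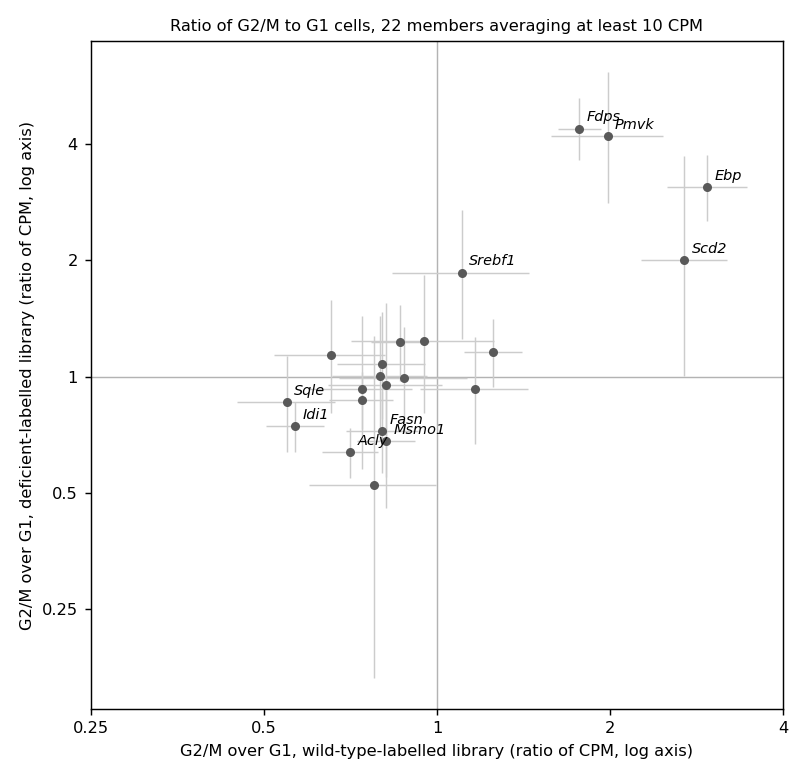
Ratio of G2/M to G1 level for the 22 members averaging at least 10 CPM, in the wild-type-labelled (x) and the deficient-labelled library (y), on log axes with 95% counting intervals. Ebp, Fdps, Pmvk and Scd2 lie above 1 on both axes, Idi1, Acly, Msmo1 and Fasn below 1 on both, and Fdps has the highest ratio in the deficient-labelled library (4.38).

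S-phase cells, of which there were few, resembled G2/M for the same leading genes. Ebp was at 55.6 against 22.7 CPM and at 69.9 against 25.3 CPM. Fdps was at 167 against 107 CPM and at 86.9 against 22.6 CPM. Pmvk was at 31.6 against 15.2 CPM and at 20.8 against 5.47 CPM. At least 2-fold higher were 3 of 23 members at 10 CPM among wild-type-labelled cells, Ebp, Pmvk and Scd2 (background 7.46%). Among deficient-labelled cells they were 3 of 20, Ebp, Fdps and Pmvk (11.5%). There 1 member, Sqle, was lower by a factor of 2 or more (2.52%). The summed level in S was below that in G1 in the wild-type-labelled library (0.874, 0.832 to 0.917) and above it in the other (1.10, 1.03 to 1.17).

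Within each phase the deficient-labelled library was the lower. Its sum stood at 0.635 of the wild-type-labelled one in G1 (0.622 to 0.649), 0.80 in S (0.740 to 0.865) and 0.681 in G2/M (0.644 to 0.720). Members at least 2-fold lower numbered 10 in G1 (background 2.06%), 6 in S (3.62%) and 6 in G2/M (2.66%).

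Most genes next to these pathways lay within 2-fold between the libraries. Of 82 genes in 7 related lists, 78 averaged at least 1 CPM, 58 averaged at least 10 CPM, of which 3 were lower by 2-fold or more, beside the 1.92% of all genes at that level, and 0 higher by as much. The 3 were Lrp8, a lipoprotein receptor (14.8 against 6.54 CPM), Scarb1, the scavenger receptor for high-density lipoprotein (27.5 against 13.0 CPM), and Dgat1, which makes triglyceride (19.2 against 7.21 CPM). Lrp8 and Scarb1 belong to the list of sterol uptake, esterification and transport, with 2 of its 10 genes at 10 CPM lower, a median log2 ratio of -0.20 and its highest value in Stard3 (0.51). Dgat1 belongs to the list of glycerolipid synthesis and droplets (1 of 5 lower, median -0.36), in which Chka, choline kinase, was highest at that level (0.27). Agpat3 (-0.88) and Pcyt2 (-0.82) of the same list, named after their values were seen, also lay below the 5th percentile of all genes (-0.62).

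The other lists had medians near 0. SREBP processing and sterol sensing had a median of 0.035, with its highest value in Sec24a (0.34), a coat protein of vesicles leaving the endoplasmic reticulum. Isoprenoid use, which takes up the product of Fdps, had a median of 0.054, from Rabggtb (-0.46) to Dhdds (0.30). LXR and efflux had a median of -0.070 and only Nr1h2 (-0.10) and Lpcat3 (-0.036) at 10 CPM or more. Fatty acid elongation and supply had a median of 0.036, from Hacd3 (-0.69) to Hacd2 (0.47). Fatty acid oxidation, the opposite pathway, had a median of 0.079, from Ech1 (-0.32) to Slc25a20 (0.66), the carnitine carrier of mitochondria. Over all 7020 genes averaging at least 10 CPM the median was 0.028 and 46.4% were below 0.

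**Figure D5:**
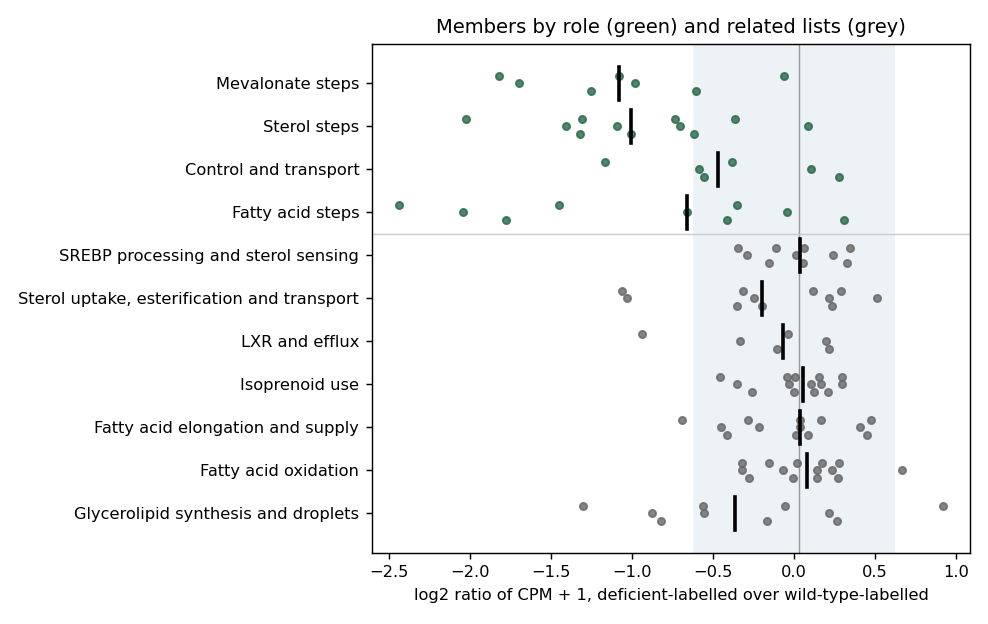
Log2 ratio of CPM plus 1, deficient-labelled over wild-type-labelled library, for the members by role (green) and the genes averaging at least 1 CPM in 7 related lists (grey), with a black bar at each median. The shaded band spans the 5th to 95th percentile of all genes averaging at least 10 CPM (-0.62 to 0.62) and the grey line is their median. The medians of roles and lists include genes under 10 CPM, unlike the band. Those of 3 of the 4 roles lie to the left of the band, while those of the related lists lie inside it. For the fatty acid steps the median (-0.66) is the value of Elovl6, which averages 8.07 CPM.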

How the data were processed

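Libraries were made with the 10x Genomics 3′ kit v3.1, according to the labels' protocols. The authors deposited raw UMI counts per gene and barcode; per the file headers the matrices come from Cell Ranger 7.0.0, and the submitters' processing notes name mm10. Neither the counting strand nor the annotation is given in the sources used here. The matrices held 1149 and 754 barcodes, of which 88.6% and 94.0% were kept, and 12 multiplexing tags, which were left out of totals. The main tag of each library led in all of its kept cells, with 85.8% and 91.2% of tag counts. The limit that 0 UMIs sets is 0.123 and 0.168 CPM (3 counts).

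The members and lists were chosen with earlier results of these data known. The genes named are all members (with intervals for those averaging at least 10 CPM), the highest and lowest gene of each related list at that level (not all reported here), the genes outside the members that rank with them over cells (at least 20 CPM in both libraries, 10 taken, 1 of them not reported here) and Nfatc1. Intervals are 95%: exact Poisson for sums, Clopper-Pearson for shares and the conditional binomial for ratios. Cells were thinned to 5000 UMIs for classes, phases (scanpy 1.11.5 scores) and shares, while levels used all UMIs; Scrublet called 5 and 6 doublets (0.491% and 0.846%), which were kept, so a caller that marks so few may have missed some. A size rule tested on simulated counts of the library comparison recovered 50 of 50 genes changed 2.5-fold and 0 of 50 changed 1.5-fold. The changed genes were drawn only from levels well above the floor of 10 CPM, so recovery nearer that floor was not tested. Recovery for the members themselves, or with spread between mice or cultures, was not tested either. Alternatives changed the scaling (TMM in edgeR 4.0.16, median ratios), the totals, the barcode filters, the pseudocount, the floors, the cytokine cutoffs, the phase scores and the class mix. The scripts ran in R 4.3.3 and in Python 3.11.15 with pandas 2.3.3, SciPy 1.17.1 and NumPy 2.4.6.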

Additional observations from a re-analysis of the deposited data

Results flagged for a closer look

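Results in this section are given as values, and the differences between libraries were not tested. Fdft1, squalene synthase, was lower in S than in G1 cells of the wild-type-labelled library (ratio 0.620) and higher in those of the deficient-labelled library (1.83), from 27 and 20 UMIs in S. Acly, ATP citrate lyase, was lower in the Il17f class than in the other cells of the wild-type-labelled library (0.813) and higher in the deficient-labelled one (1.77). The summed member level in S against G1 also pointed in opposite directions (0.874 and 1.10). Each was picked out because the counting intervals of the libraries lay on opposite sides of 1.

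Barcodes left out for exceeding the mitochondrial limit carried the members at a summed 1769 CPM in the wild-type-labelled (112 barcodes with at least 500 genes, 1645 to 1899) and 1407 CPM in the deficient-labelled library (36 barcodes, 1222 to 1613). Both are above the level in kept cells (1354 and 879 CPM), and they were noted because no comparison above uses these barcodes. Their median mitochondrial percentage was 21.5% and 19.4%.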

How the results depend on the processing

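No paired analysis was possible because each genotype has 1 library. Of 92 alternatives to the results described, 77 stayed within the counting interval of the value given (or within 1.5 times a count), 15 moved beyond it and 0 reversed, and the cause was not tested. Of 96 alternatives for single members and for contrasts chosen after values were seen, 75 stayed, 20 moved and 1 reversed. The median log2 ratio of the members ranged from -1.01 to -0.56, and the count at least 2-fold lower from 8 to 11, except 15 with no floor on the level. The ratio of summed levels, 0.649, was 0.690 with totals without cytokine, chemokine and granule genes, 0.594 without ribosomal protein and mitochondrial genes, 0.634 as a mean of per-cell CPM and 0.635 in G1 cells. It was 0.496 without Idi1, Acly and Acaca, the members with most UMIs, 0.516 for cholesterol steps only and 0.880 for fatty acid steps only. The ratio of Ifng to Il17a producers in the wild-type-labelled library was 0.820 at a cutoff of 2 UMIs and 0.779 at 10, and that in the deficient-labelled one was 0.809 with totals without cytokine, chemokine and granule genes. The ratio at 1 class mix was 0.717 with the wild-type-labelled mix, 0.672 with the deficient-labelled mix and 0.721 without cytokine, chemokine and granule genes in the totals. At cutoffs of 2 and 10 UMIs, 7 and 6 classes held enough cells for it.

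Alternatives chosen after seeing the data were phase scores on scaled values, a tag purity limit, and G1 cells or other totals for single members and contrasts. Scaled scores called 52.2% and 56.7% of cells G1 in place of 88.8% and 92.4%, put the G2/M to G1 ratio of the deficient-labelled sum at 1.01, and put that of Ebp at 2.17 and 1.95 and of Fdps at 1.43 and 2.54 (members whose calls were lost are given above). Cells with at least 80% of tag counts on the main tag (532 and 493) gave a library ratio of 0.660. Scd2 with against without Il2 reversed among G1 cells of the deficient-labelled library (2.53, 0.325 to 114), on 7 against 1 UMI. The alternative without shared barcodes was not run, since there were 0. Low depth limits the members under 10 CPM, of which Fads2 had 9 UMIs in the deficient-labelled library.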
